A study of Mus musculus with 6 samples.

Results

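MHC class II molecules are the proteins with which antigen-presenting cells show peptides from endosomes to CD4+ T cells. The genes described here are the classical chain genes H2-Aa, H2-Ab1 and H2-Eb1, the invariant chain gene Cd74, the peptide-loading genes H2-DMa, H2-DMb1, H2-DMb2, H2-Oa and H2-Ob, and Ciita, the regulator of this gene family. These 10 genes were taken by their GENCODE vM21 mouse symbols out of the 46078 genes in each table, and each symbol matched 1 Ensembl gene. All 10 passed the filter on low counts, which left 18097 genes for testing.

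Total RNA from mice was sequenced in 6 libraries, 3 labelled JMML and 3 labelled WT. The labels give juvenile myelomonocytic leukemia, which JMML abbreviates, as the genotype of the first group and wild type as that of the second. This disease of young children is an overgrowth of monocytic and granulocytic cells. The title of the series speaks of fetal blood formation that is sustained and of a mouse model. The labels name no altered allele, driver promoter, treatment, strain, age or tissue for either group. Each library has a sample identifier of its own, but no label says whether the libraries of a group come from different mice. A p-value therefore covers only the variation among these libraries, which may be technical. Total counts lay between 91976512 and 108395459 in JMML libraries and between 47096464 and 61656272 in WT libraries. Sample identifiers carry the final letter F in JMML replicates 1 and 2 and M in JMML replicate 3 and all WT libraries, and JMML replicate 3 and WT replicate 3 have identifiers that begin alike.

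A classical class II molecule is a pair of an alpha and a beta chain: H2-Aa pairs with H2-Ab1, and H2-Eb1 pairs with the product of H2-Ea where a strain has one. New pairs are held by the invariant chain, Cd74, which blocks the peptide groove and carries them to endosomes, where proteases cut it down to a small fragment. H2-DM, a pair of H2-DMa with a DMb chain, swaps that fragment for antigen peptides, and H2-O, the pair of H2-Oa and H2-Ob, inhibits H2-DM. Dendritic cells, B cells and activated macrophages are the usual sources of these transcripts in blood-forming and lymphoid tissue. Ciita binds no DNA by itself. It is a coactivator that docks on RFX, CREB and NF-Y proteins, which sit on an X box and a Y box shared by class II promoters.

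The promoter stretches that hold these boxes are shown because they are the sequence that the family shares and Ciita acts through. RefSeq promoters of GRCm38.p6, each 250 bases before to 50 bases after a gene start, were available for 7 of the 10 genes, with H2-DMa having 2. They were searched for GNAAC, the core letters of the X box, followed after 24 to 32 bases by ATTGG, the Y box, on the same strand. H2-Aa, H2-Eb1, H2-DMb1, H2-Oa and H2-Ob held the pair of motifs, which is 5 of 8 promoters, and neither H2-DMa promoter nor that of H2-DMb2 did. Among all 32851 promoters in the table, 505 (1.54%) held the pair on either strand. Each motif alone was common: ATTGG was in 12289 promoters (37.4%) and GNAAC in 27873 (84.8%), either strand counted. Each line below runs 5′ to 3′ on the strand of its gene, with both motifs in capitals.
H2-Aa, chr17:34287863-34287912, minus strand: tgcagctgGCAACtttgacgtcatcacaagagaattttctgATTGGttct
H2-Eb1, chr17:34305768-34305816, plus strand: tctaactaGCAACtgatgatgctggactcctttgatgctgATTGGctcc
H2-Oa, chr17:34092295-34092344, plus strand: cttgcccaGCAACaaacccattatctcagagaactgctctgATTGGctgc
H2-Ob, chr17:34238810-34238856, plus strand: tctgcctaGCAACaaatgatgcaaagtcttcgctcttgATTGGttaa

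The motifs were 28 bases apart in H2-Aa, H2-Oa and H2-DMb1, 27 in H2-Eb1 and 25 in H2-Ob. H2-DMb1 and H2-DMb2 are neighbouring, closely similar genes, and the stretch of each around the X box position is shown to compare them. Both stretches lie upstream of the RefSeq starts, but inside the wider gene spans of GENCODE vM21, which places the H2-DMb1 stretch in the untranslated part of its first exon and the H2-DMb2 stretch in an intron of a longer transcript. For that reason only the bases around the X box position are printed. The H2-DMb2 stretch is the one that lined up best with H2-DMb1 without a gap, a choice made after the letters were seen. Capitals mark GNAAC, and the H2-DMb2 stretch has none.
H2-DMb1, chr17:34153089-34153116, plus strand: tttacctaGTAACtgatgatgctaggct
H2-DMb2, chr17:34145118-34145145, plus strand: tttacctattaaccgatgatgctaggct

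They were identical at 26 of 28 bases. The differences were G9T and T14C, counted from 1 at the 5′ end, with the H2-DMb1 letter first and the H2-DMb2 letter last. The H2-DMb2 promoter does hold ATTGG. A motif match describes letters and does not show that a factor was bound.

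The 3 classical chains, the invariant chain and Ciita were each at least 4-fold higher in JMML libraries than in WT libraries, all 3 H2-DM genes and H2-Oa rose by smaller factors, and H2-Ob did not pass the test. With p-values from edgeR's quasi-likelihood test, adjusted by Benjamini-Hochberg over all 18097 genes and called at 0.05, JMML libraries were higher in 9 of the 10 genes and lower in 0. The same call was made for 2245 genes higher (12.4%) and 2492 genes lower (13.8%) among all genes tested. In 9 of the 10 genes every JMML library lay above every WT library, which held for 4141 of all genes tested (22.9%). A rise of at least 4-fold that passed the test was found for 173 genes (0.956%), and 5 of them belong here. The median log2 fold change of the 10 genes was 2.27, and that of all genes tested was −0.02. Bulk libraries cannot tell a larger share of class II-expressing cells from more class II RNA per cell.

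Together the 10 genes took 0.215% ± 0.0471 of all counts in JMML libraries and 0.0344% ± 0.00523 in WT libraries (SD, n = 3 each). The 3 classical chains and Cd74 made up 90.4% ± 1.2 of that total in JMML libraries and 76.1% ± 4.19 in WT libraries. These 4 genes were a larger part of the class II total in JMML libraries, and the groups did not overlap in this share, at 89.0% to 91.4% against 71.3% to 79.2%.

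**Figure D1:**
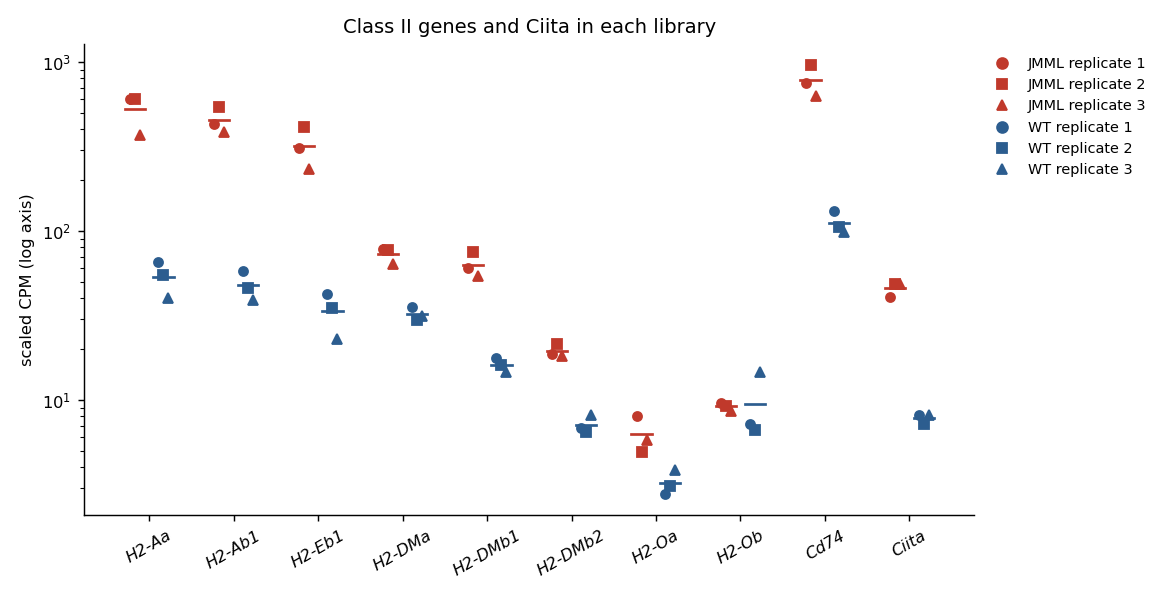
Scaled CPM of the 10 genes on a log axis, with 1 symbol per library (red JMML, blue WT; circle, square and triangle for replicates 1, 2 and 3) and a bar at each group mean. The JMML symbols lie above the WT symbols for every gene except H2-Ob, where WT replicate 3 is the highest of the 6 libraries at 14.6 CPM.

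H2-Aa codes for the alpha chain of the I-A molecule (ENSMUSG00000036594, chromosome 17, 34282744 to 34287823, minus strand, GRCm38). It had 599, 600 and 371 CPM in JMML replicates 1, 2 and 3, against 65.4, 54.7 and 40 CPM in WT replicates 1, 2 and 3, where CPM, the common scale for sequencing depth, was computed on library totals scaled by TMM. The lowest JMML library was thus far above the highest WT library, and JMML replicate 3, at 70.9% of its group mean, was well under the other two. The log2 fold change was 3.29 ± 0.27 (SE; adjusted p = 0.00186), a 9.8-fold difference, and the gene ranked 51st by fold change of all genes tested.

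H2-Ab1 codes for the beta chain that pairs with H2-Aa (ENSMUSG00000073421, chromosome 17, 34257689 to 34269419, plus strand). It had 429, 538 and 387 CPM in the JMML libraries and 58.2, 45.8 and 39.0 CPM in the WT libraries, in the order of replicates 1 to 3. The groups were far apart, and the log2 fold change was 3.24 ± 0.20 (adjusted p = 0.00126). H2-Eb1 codes for the beta chain of the I-E molecule (ENSMUSG00000060586, chromosome 17, 34305867 to 34316674, plus strand), and had 310, 414 and 233 CPM in JMML libraries against 42.3, 34.9 and 23.0 CPM in WT libraries. Its log2 fold change was 3.25 ± 0.30 (adjusted p = 0.00199). The 3 chains thus differed by 9.47-fold to 9.8-fold, closer to each other than their standard errors. In both groups replicate 3 was the lowest of each chain.

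The partner of H2-Eb1 was all but missing from the counts. H2-Ea-ps, the annotated remnant of the E alpha gene in the reference strain, had 0 counts in all 3 JMML libraries and 0, 2 and 0 counts in the WT libraries; H2-Ea had no identifier in the tables. Strains of the b haplotype, C57BL/6 among them, have lost the promoter of this gene and make no I-E molecule, but the strain of these mice is not given. H2-Eb2, a little-expressed beta chain gene next to H2-Eb1, had 77, 150 and 71 counts in JMML libraries and 15, 11 and 27 counts in WT libraries. Its log2 fold change was 1.79 ± 0.45 (adjusted p = 0.0264), and the call was lost in 6 of 16 alternative fits, among them those without JMML replicate 2 (1.52, adjusted p = 0.0881), WT replicate 1 (1.67, adjusted p = 0.0745) or WT replicate 2 (1.59, adjusted p = 0.0911).

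Cd74 (ENSMUSG00000024610, chromosome 18, 60803848 to 60812652, plus strand) was the most abundant of the 10 genes in every library. It had 753, 953 and 625 CPM in JMML libraries and 131, 106 and 98.6 CPM in WT libraries, with no overlap. The log2 fold change was 2.79 ± 0.20 (adjusted p = 0.00174), 6.93-fold. Its fold change was below those of the chains it escorts. Per kilobase of exon, its level over the mean level of H2-Aa and H2-Ab1 was 2.76, 3.09 and 3.00 in JMML libraries and 3.92, 3.93 and 4.57 in WT libraries. Every JMML ratio was below every WT ratio, and the mean log2 ratios, 1.56 ± 0.08 in JMML and 2.05 ± 0.13 in WT (SD, n = 3 each), differed by −0.49. A two-sided exact permutation test gave p = 0.1, the smallest that 3 against 3 libraries allow, and 0.15 when adjusted over the 6 ratios that were computed, so no ratio could pass 0.05.

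H2-DM is the editor of class II peptides. H2-DMa (ENSMUSG00000037649, chromosome 17, 34119541 to 34139101, plus strand) had 78.1, 77.5 and 63.8 CPM in JMML libraries and 35.6, 29.6 and 31.3 CPM in WT libraries. The groups did not overlap, and the log2 fold change was 1.19 ± 0.13 (adjusted p = 0.00276). H2-DMb1 (ENSMUSG00000079547, chromosome 17, 34153072 to 34160230, plus strand) had 60.5, 74.5 and 53.8 CPM in JMML libraries and 17.6, 16.0 and 14.6 CPM in WT libraries, with a log2 fold change of 1.97 ± 0.16 (adjusted p = 0.00186). H2-DMb2 (ENSMUSG00000037548, chromosome 17, 34143307 to 34151555, plus strand) had 18.6, 21.4 and 18.1 CPM in JMML libraries and 6.85, 6.44 and 8.10 CPM in WT libraries, with a log2 fold change of 1.44 ± 0.16 (adjusted p = 0.00276). All 3 genes rose without overlap, at 2.27-fold to 3.92-fold.

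The 2 DMb genes share sequence, so the division of reads between them is uncertain. Their longest coding transcripts were identical at 1153 of 1219 aligned bases (94.6%), and 369 of the 1629 stretches of 50 bases in H2-DMb1 transcripts (22.7%) occur in H2-DMb2 transcripts as well. The sum of both genes does not depend on that division and was 79.0, 95.9 and 71.9 CPM in JMML libraries against 24.4, 22.4 and 22.7 CPM in WT libraries. On the log2 scale the group means of the sum differed by 1.83, and the sum was higher in every JMML library than in any WT library. Per kilobase, H2-DMb2 over H2-DMb1 was 0.296, 0.276 and 0.323 in JMML libraries and 0.374, 0.388 and 0.534 in WT libraries, lower in 3 of 3 JMML libraries (log2 difference −0.52, exact permutation p = 0.1, adjusted 0.15).

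H2-Oa and H2-Ob form the inhibitor of H2-DM. H2-Oa (ENSMUSG00000024334, chromosome 17, 34092340 to 34095234, plus strand) had 7.98, 4.94 and 5.80 CPM in JMML libraries and 2.77, 3.09 and 3.82 CPM in WT libraries. The groups did not overlap, and JMML replicate 1 was at 128% of its group mean. The log2 fold change was 0.95 ± 0.26 (adjusted p = 0.0325), but the call was lost in 8 of 16 alternative fits, with adjusted p between 0.0518 without JMML replicate 3 and 0.158 in the fit that includes the identifier letter. Without JMML replicate 1 the log2 fold change was 0.75 (adjusted p = 0.0711), without WT replicate 1 it was 0.90 (adjusted p = 0.0801), and without WT replicate 2 it was 0.91 (adjusted p = 0.1).

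H2-Ob (ENSMUSG00000041538, chromosome 17, 34238903 to 34254414, plus strand) had 9.61, 9.21 and 8.57 CPM in JMML libraries and 7.23, 6.63 and 14.6 CPM in WT libraries. The groups overlapped because WT replicate 3 was above all other libraries, at 154% of its group mean, while the JMML libraries lay close together. The log2 fold change was −0.05 ± 0.31 (adjusted p = 0.911). Without WT replicate 3 it was 0.44 (adjusted p = 0.143), and in 4 other alternative fits it lay between 0.01 and 0.04, so the gene had no settled direction. The sum of 10 B cell markers was also highest in WT replicate 3, at 408 CPM, against 122 and 105 CPM in WT replicates 1 and 2 and 12.1 to 18.2 CPM in JMML libraries; its part in the H2-Ob values was not tested. As background, H2-O is known mostly from B cells, thymic epithelium and some dendritic cells.

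The balance of editor and inhibitor followed from these values. The H2-DM level was taken per kilobase as the mean of the alpha chain, H2-DMa, and the beta chain, the sum of H2-DMb1 and H2-DMb2, and the H2-O level as the mean of H2-Oa and H2-Ob. H2-DM over H2-O was then 9.29, 15.1 and 10.7 in JMML libraries and 7.46, 6.35 and 4.13 in WT libraries. Every JMML ratio was above every WT ratio, and the mean log2 ratios were 3.52 ± 0.36 in JMML and 2.54 ± 0.44 in WT (SD, n = 3 each; difference 0.98, exact permutation p = 0.1, adjusted 0.15). By contrast, ratios within the classical chains overlapped between the groups. H2-Aa over H2-Ab1 was 0.943, 0.754 and 0.647 in JMML libraries and 0.760, 0.808 and 0.693 in WT libraries (log2 difference 0.04, exact permutation p = 1), and H2-Eb1 over H2-Ab1 differed by 0.01 (exact permutation p = 0.8). These 2 differences changed sign when single libraries were left out, lying between −0.11 and 0.17 and between −0.10 and 0.11.

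**Figure D2:**
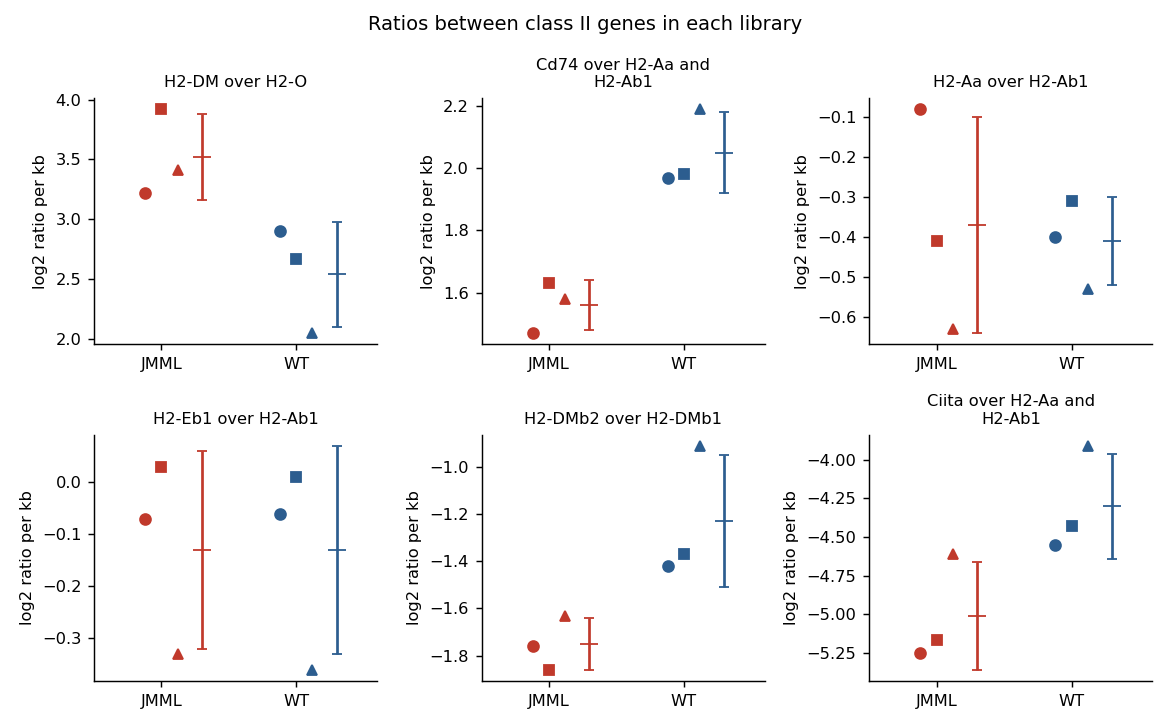
Log2 of 6 ratios of levels per kilobase in each library, JMML left of WT, with the group mean and SD (n = 3 each) beside the points. The groups do not overlap for H2-DM over H2-O, Cd74 over the I-A chains, H2-DMb2 over H2-DMb1 and Ciita over the I-A chains, and they overlap for H2-Aa over H2-Ab1 and H2-Eb1 over H2-Ab1.

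Ciita (ENSMUSG00000022504, chromosome 16, 10480059 to 10528418, plus strand) had 40.8, 48.6 and 48.7 CPM in JMML libraries and 8.11, 7.15 and 8.14 CPM in WT libraries. The libraries of each group lay close together, at 46.0 ± 4.53 CPM in JMML and 7.80 ± 0.562 CPM in WT (SD, n = 3 each). The log2 fold change was 2.56 ± 0.14 (adjusted p = 0.000699), 5.9-fold, the smallest adjusted p of the 10 genes. JMML replicate 3, which was lowest for 8 of the 10 genes, was highest for Ciita at 106% of the group mean. Per kilobase, Ciita over the mean of H2-Aa and H2-Ab1 was 0.0263, 0.0278 and 0.0411 in JMML libraries and 0.0426, 0.0465 and 0.0664 in WT libraries, lower in 3 of 3 JMML libraries (log2 difference −0.71, exact permutation p = 0.1, adjusted 0.15).

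Ordered by level per kilobase of exon, the genes kept much the same sequence in both groups. In JMML libraries Cd74 came first at 463 ± 98.4 CPM per kilobase, then H2-Ab1 at 176 ± 30.2, H2-Eb1 at 164 ± 46.9 and H2-Aa at 138 ± 34.8, whose ranges overlapped. H2-DMb1 (37.4 ± 6.27), H2-DMa (21.2 ± 2.34) and H2-DMb2 (11.1 ± 1.02) followed without overlap, then Ciita (4.83 ± 0.476) and H2-Oa (4.43 ± 1.12), which overlapped, and H2-Ob last (1.70 ± 0.098). In WT libraries Cd74 was again first at 66.8 ± 10.2 CPM per kilobase and the 3 classical chains, from 14.1 ± 3.36 for H2-Aa to 18.6 ± 3.79 for H2-Ab1, again overlapped. H2-DMb1 (9.55 ± 0.892) and H2-DMa (9.33 ± 0.896) overlapped in WT, and Ciita was last there at 0.818 ± 0.059, below H2-Ob (1.76 ± 0.822). By this measure Ciita was above H2-Ob in JMML libraries and below it in WT libraries. The length used is that of all annotated exons of a gene merged, which can exceed that of its transcripts. It was 2568 bases for H2-Ab1 and 1944 for H2-Eb1, whose longest coding transcripts have 1212 and 1669 bases. The order of genes and the overlaps between them depend on this length.

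Neighbouring transcripts limit a few of these values, since the strand setting of the counting is not given. H2-DMa shares 360 exon bases (10.4% of its exon length) with the antisense gene Brd2, H2-Oa shares 321 (22.8%) with BC051537, and Ciita shares 329 (3.45%) with Dexi. Brd2 did not pass the test (below), but had 9901 to 23826 counts per library against 1543 to 8145 for H2-DMa. Dexi had 210 to 469 counts against 373 to 5113 for Ciita. BC051537 had 6 to 22 counts in every library against 161 or more for H2-Oa. The effect of shared bases on the fold changes was not tested.

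Of the class II genes 8 lie in 1 interval of chromosome 17, from 34092340 to 34316674, which also holds 5 other coding genes. Psmb8 and Psmb9 are subunits of the immunoproteasome, and Tap1 and Tap2 form the peptide transporter of MHC class I. Psmb8 had 126, 166 and 177 CPM in JMML libraries and 69.8, 58.9 and 70.9 CPM in WT libraries (log2 fold change 1.23 ± 0.15, adjusted p = 0.00357). Psmb9 had 35.6, 39.5 and 61.8 CPM in JMML libraries and 20.4, 17.5 and 19.2 CPM in WT libraries (1.26 ± 0.22, adjusted p = 0.00821). Both rose without overlap, and both were highest in JMML replicate 3, the library in which the classical class II chains were lowest among JMML.

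Tap1 had 69.1, 123 and 180 CPM in JMML libraries and 63.5, 59.3 and 57.5 CPM in WT libraries (log2 fold change 1.04 ± 0.30, adjusted p = 0.0421). Tap2 averaged 88.5 ± 14.4 CPM in JMML and 59.1 ± 6.32 CPM in WT (0.58 ± 0.15, adjusted p = 0.0276). Neither call was firm: that of Tap1 was lost in 8 of 16 alternative fits and that of Tap2 in 6. Tap1 lost its call without JMML replicate 2 (1.07, adjusted p = 0.0894), JMML replicate 3 (0.70, adjusted p = 0.0804), WT replicate 1 (1.14, adjusted p = 0.0825), WT replicate 2 (1.04, adjusted p = 0.136) or WT replicate 3 (1.06, adjusted p = 0.099). Tap2 lost it without JMML replicate 2 (0.58, adjusted p = 0.0706), JMML replicate 3 (0.49, adjusted p = 0.0761), WT replicate 2 (0.51, adjusted p = 0.118) or WT replicate 3 (0.63, adjusted p = 0.0676). Brd2, a bromodomain protein gene unrelated to antigen presentation, lies between H2-Oa and H2-DMa and averaged 208 ± 22.5 CPM in JMML and 196 ± 8.45 CPM in WT. Its log2 fold change was 0.08 ± 0.12 (adjusted p = 0.622), and −0.10 when scaled by library totals. With all 6 libraries H2-Ob and Brd2 were thus the coding genes of the interval, among 13, that did not pass the test.

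**Figure D3:**
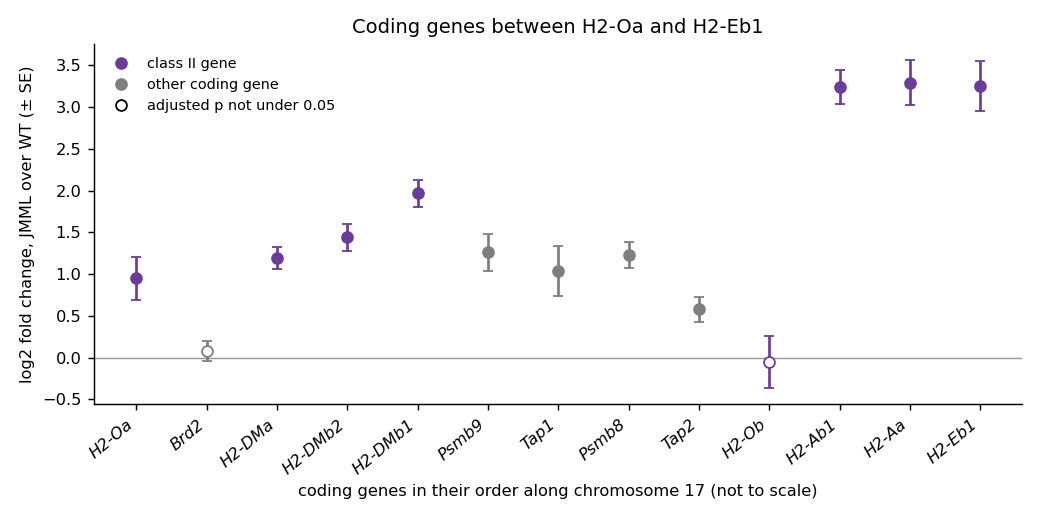
Log2 fold change of JMML over WT (± SE) for the 13 coding genes from H2-Oa to H2-Eb1, in their order along the chromosome and not to scale (purple class II genes, grey other genes; open circles did not pass the test). H2-Ab1, H2-Aa and H2-Eb1 stand together at 3.24 to 3.29, next to H2-Ob at −0.05.

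Of 7 tested genes for RFX, NF-Y and CREB1, the DNA-binding partners of Ciita, 0 were higher in JMML and 1 was lower. Their median log2 fold change was −0.03. Over all genes tested 12.4% were called higher and 13.8% lower, so 0 and 1 of 7 genes lie near these shares. The counts of the lists that follow stand beside the same shares. Rfx5, the large RFX subunit, averaged 17.4 ± 0.762 CPM in JMML and 17.7 ± 1.16 CPM in WT (−0.03 ± 0.13, adjusted p = 0.893), and the sign changed in 4 of 16 alternative fits. The member that fell was Nfya, the DNA-contacting subunit of NF-Y, with 42.4, 43.0 and 52.7 CPM in JMML libraries and 110, 96.8 and 95.2 CPM in WT libraries (−1.13 ± 0.13, adjusted p = 0.00278). Nfyb (0.25 ± 0.12, adjusted p = 0.162), Nfyc (0.14 ± 0.15, adjusted p = 0.54) and Rfxap (0.24 ± 0.15, adjusted p = 0.287) did not pass the test. Nfyc was at −0.04 with library totals.

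Of 11 tested genes on the routes that control Ciita, 4 were higher and 1 was lower, with a median of 0.59. Interferon gamma, which induces Ciita in many cell types, was barely counted: Ifng had 0, 8 and 29 counts in JMML libraries and 6, 4 and 18 counts in WT libraries and was not tested. Ifngr2, a chain of its receptor, averaged 97.5 ± 12.3 CPM in JMML and 50.8 ± 1.37 CPM in WT (0.94 ± 0.12, adjusted p = 0.00355). Ifngr1, the other chain, had a log2 fold change of 0.68 ± 0.17 (adjusted p = 0.0243).

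Irf8 and Spi1 (PU.1), factors of the monocyte and dendritic lineages, both rose. Irf8 had 293, 458 and 412 CPM in JMML libraries and 192, 180 and 168 CPM in WT libraries (1.11 ± 0.18, adjusted p = 0.00648), and Spi1 had 181, 222 and 194 CPM in JMML libraries and 101, 78.4 and 94.0 CPM in WT libraries (1.13 ± 0.14, adjusted p = 0.00325). Neither gene overlapped between groups. Irf4, which is used by B cells, plasma cells and some dendritic cells, fell to 2.94 ± 0.393 CPM in JMML libraries, against 33.4 ± 20.4 CPM in WT libraries (−3.51 ± 0.42, adjusted p = 0.00323). WT replicate 3 was the highest for Irf4, at 57.0 CPM.

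Of 10 genes for processing and turnover of class II, 5 were higher and 0 lower, with a median log2 fold change of 0.77. The number called lower was 1 in the DESeq2 test, with the replicate block and without WT replicate 1. Ctss, cathepsin S, which trims the invariant chain in antigen-presenting cells, had 654, 532 and 329 CPM in JMML libraries and 144, 163 and 163 CPM in WT libraries (1.69 ± 0.24, adjusted p = 0.00479). The groups did not overlap, and JMML replicate 3 was the lowest in its group, as for the classical chains. Ctsh, another cathepsin (1.26 ± 0.18, adjusted p = 0.00481), Ctsz, cathepsin Z (1.15 ± 0.13, adjusted p = 0.00276), and Ifi30, a thiol reductase that unfolds antigens (1.09 ± 0.12, adjusted p = 0.00266), also rose. The fifth was March1, a ubiquitin ligase that removes class II from the surface, at 70.6 ± 22.4 CPM in JMML and 27.9 ± 3.25 CPM in WT (1.34 ± 0.23, adjusted p = 0.00795). March8, in the same list, had the opposite sign and did not pass the test. It averaged 23.8 ± 10.2 CPM in JMML and 53.4 ± 27.3 CPM in WT (−1.16 ± 0.48, adjusted p = 0.113). March1 and March8 were named after their values were seen.

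Of 7 costimulatory genes, 4 were higher and 0 lower, with a median of 1.11. Cd86, the B7-2 ligand of CD28, had 46.2, 38.5 and 33.4 CPM in JMML libraries and 11.1, 13.1 and 10.2 CPM in WT libraries (1.78 ± 0.17, adjusted p = 0.00219). Icosl, the ligand of ICOS, had 36.4, 36.6 and 28.3 CPM in JMML libraries and 11.8, 10.9 and 11.3 CPM in WT libraries (1.58 ± 0.15, adjusted p = 0.00215). Both were well separated between groups. Cd80, or B7-1 (1.39 ± 0.35, adjusted p = 0.0257), and Cd83, a maturation marker of dendritic cells (1.11 ± 0.27, adjusted p = 0.023), passed the test too, but the count of the list was 2 without JMML replicate 2, without any single WT replicate, in the fit with the identifier letter and among libraries with the letter M.

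Since class II transcripts come from several cell types, marker lists of these types were counted in the same fit. The labels name no cell type to check them against. Beside each count stand the shares over all genes tested, 12.4% higher and 13.8% lower. B cell markers were low in JMML libraries: all 10 fell, with a median of −4.97 and a summed level of 12.1 to 18.2 CPM in JMML libraries against 105 to 408 CPM in WT libraries. Fcer2a, a low-affinity IgE receptor, was barely counted in either group, with 3, 0 and 0 counts in JMML libraries and 14, 7 and 22 counts in WT libraries. The number of B cell markers called lower was 5 once the identifier letter was a term of the fit and 4 among libraries with the letter M. Class II and B cell transcripts thus went in opposite directions, which is a measurement on bulk RNA and not on cells.

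Markers of cDC1, the cross-presenting dendritic cells, were higher in JMML libraries, as the class II genes were. All 8 were higher (median log2 fold change 2.28), at a summed level of 450 to 619 CPM in JMML libraries against 110 to 127 CPM in WT libraries. Naaa, a lysosomal amidase (2.49 ± 0.13, adjusted p = 0.000699), Tlr3, a receptor for double-stranded RNA (3.59 ± 0.20, adjusted p = 0.000699), and Clec9a, a lectin that senses dead cells (2.21 ± 0.23, adjusted p = 0.00244), rose. Xcr1, a chemokine receptor, had 18.4, 35.1 and 37.5 CPM in JMML libraries and 0.877, 1.78 and 1.34 CPM in WT libraries. Within the JMML group the order differed from that of class II: the cDC1 sum was 450, 619 and 568 CPM in replicates 1, 2 and 3, lowest in replicate 1, whereas the 10 class II genes took 0.206%, 0.266% and 0.173% of counts, lowest in replicate 3. Naaa, at 240, 311 and 290 CPM, and Ppt1, at 122, 174 and 145 CPM, made up most of the cDC1 sum in these libraries. Each marker of the list was lowest in JMML replicate 1 within its group. No cDC1 marker had 0 counts in any library. The part of these cells in the class II values was not tested.

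Of 7 pan-cDC markers, 2 were higher and 1 was lower, with summed levels of 176 to 204 CPM in JMML libraries and 122 to 131 CPM in WT libraries. Itgax (CD11c) rose (1.72 ± 0.15, adjusted p = 0.00191), whereas Zbtb46, a factor of classical dendritic cells, averaged 26.7 ± 1.77 CPM in JMML and 29.5 ± 2.92 CPM in WT (−0.15 ± 0.13, adjusted p = 0.433). The lower call, that of Ccr7, was lost when any single library other than JMML replicate 3 was left out. Among 6 cDC2 markers 3 were higher and 1 was lower, with summed levels of 257 to 569 CPM in JMML libraries and 350 to 364 CPM in WT libraries. The marker that fell was Cd209a, a lectin of cDC2 and monocyte-derived cells, with 0, 0 and 8 counts in JMML libraries and 633, 486 and 348 counts in WT libraries. The count of cDC2 markers called higher was 0 when any single WT replicate was left out.

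Monocyte markers gave 5 higher and 0 lower of 8, with summed levels of 3097 to 5934 CPM in JMML libraries and 2276 to 2510 CPM in WT libraries. JMML replicate 3 was the lowest JMML library in this sum too, at 3097 CPM, against 5934 and 5871 CPM in JMML replicates 1 and 2. Much of that gap came from Fn1, at 2600, 2622 and 705 CPM in JMML replicates 1, 2 and 3, which did not pass the test (0.94 ± 0.44, adjusted p = 0.154). The other markers of the list were lowest in JMML replicate 3 as well, except Ly6c2, at 526, 695 and 640 CPM. Ly6c2, a surface antigen of inflammatory monocytes, rose by 1.48 ± 0.14 on the log2 scale (adjusted p = 0.00213). In the fit with the identifier letter 3 of the 8 were higher. Among 8 macrophage markers 2 were higher and 1 was lower, with summed levels of 404 to 742 CPM in JMML libraries and 543 to 733 CPM in WT libraries. Here the groups overlapped, and the number called lower was 5 in the fit with the identifier letter and 0 when JMML replicate 2 or either of WT replicates 1 and 2 was left out; the number called higher was 1 without WT replicate 2.

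Of 7 tested markers of plasmacytoid dendritic cells 0 were higher and 2 were lower, with summed levels of 44.5 to 137 CPM in JMML libraries and 113 to 197 CPM in WT libraries. Tcf4, a factor of these cells that B cells share, fell (−1.34 ± 0.12, adjusted p = 0.00191), and the count of markers called lower was 1 without JMML replicate 1 or 2 or any WT replicate, and 1 was called higher without JMML replicate 1. All 7 T cell markers fell, with summed levels of 11.4 to 18.2 CPM in JMML libraries and 35.8 to 57.6 CPM in WT libraries. That count was 3 without WT replicate 2 and 1 with the identifier letter in the fit. The part of monocytes, macrophages, plasmacytoid dendritic cells and T cells in the class II values was not tested either.

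**Figure D4:**
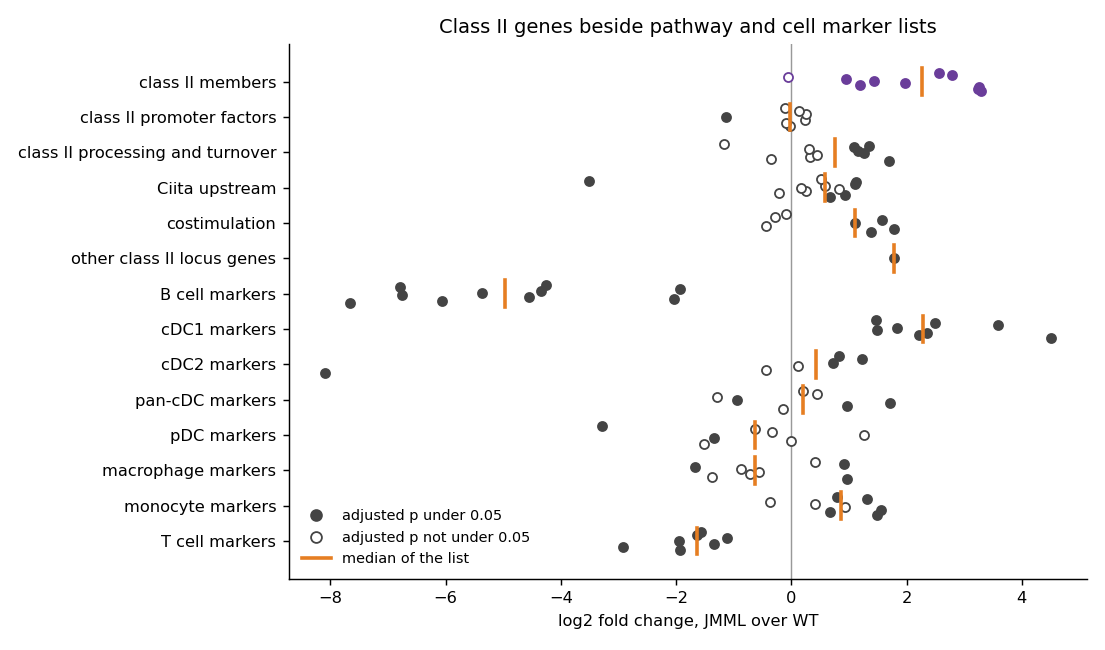
Log2 fold change of JMML over WT for each tested gene of the class II family, of 5 related lists and of 8 marker lists (filled circles passed the test, open circles did not; the orange bar is the median of the list). The class II median of 2.27 stands beside that of the cDC1 markers at 2.28, the class II promoter factors lie around 0 except Nfya, and the B cell markers are all below 0.

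The genes nearest to the average pattern of the 10 were sought among genes whose mean log2 CPM reached 2. Each was compared by the Euclidean distance of its 6 mean-centred log2 CPM values from that average. This distance uses the difference between the groups itself and is a description. The 5 nearest were Cst3 (cystatin C, an inhibitor of cathepsins) at 0.36, F10 (coagulation factor X) at 0.42, Tgfbi (a secreted matrix protein) at 0.44, Lgals3 (galectin-3) at 0.48 and Fgl2 (a fibrinogen-like protein) at 0.49. Cst3 averaged 560 ± 61.5 CPM in JMML and 147 ± 31.2 CPM in WT (log2 fold change 1.93 ± 0.18, adjusted p = 0.00215), and Fgl2 averaged 143 ± 6.35 CPM in JMML and 40.8 ± 4.64 CPM in WT (1.81 ± 0.12, adjusted p = 0.00126). Among the 10 genes themselves the distance ran from 0.23 for H2-DMb1 to 2.65 for H2-Ob. H2-DMb1 was therefore the gene of the family closest to its average pattern, and H2-Ob the gene farthest from it. The next closest of the 10 was Ciita at 0.70, so every member except H2-DMb1 lay farther from the average than the 5 nearest genes. Nearness to the average thus does not show that these 5 genes behaved like the single class II genes.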

How the data were processed

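What the authors deposited is a table of untouched read counts by Ensembl gene for each library. Per the labels' protocols the libraries come from a strand-specific kit for total RNA with ribosomal RNA removed. The submitters' processing notes name GRCm38 as the build, and DESeq2 1.22.2, R 3.5.0, Picard 2.0.1, STAR 2.5.3a, bcl2fastq 2.18.0.12 and StringTie 1.3.3b as tools; for their roles, the annotation and the strand setting, nothing is given in the sources used here. Even numbers made up 51.6% to 58.8% of the counts from 1 to 20, as they would if each mate of a pair had been counted, and counts may overstate independent fragments. Of 46078 identifiers 45229 matched GENCODE vM21, which gave symbols, positions and exon lengths.

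The test over all genes was that of edgeR 4.0.16, run under R 4.3.3 (quasi-likelihood F test, filterByExpr, TMM, Benjamini-Hochberg adjustment, threshold 0.05; common biological coefficient of variation 29.4%). The labels gave group and replicate of each library. A standard error is |log2 fold change| over the root of its F value. Ratios were compared by exact permutation tests over libraries. One count was worth 0.00923 to 0.0212 CPM. The test was tried on simulated data with 50 genes changed at each size. It recovered 6% of 1.5-fold, 32% of 2-fold, 76% of 4-fold and 96% of 8-fold changes, with 4 false calls among 109. The simulation gave those 109 calls among 17770 genes, whereas the data gave 4737 among 18097. The adjusted threshold is stricter where fewer genes change, so these rates do not carry over to the data as they stand. A gene that did not pass the test can still have changed. The 16 alternatives were other scalings, DESeq2 1.42.0, limma-voom (limma 3.58.1), other filters, a replicate block, the identifier letter (as a covariate, or only M), scaling without class II genes and each library left out.

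The 10 genes and the 13 lists were chosen with earlier results of these data known. Named genes were the 10 genes, up to 4 tested genes of each list with the smallest p, Ifng, Rfx5, Irf8, Spi1, Ctss, H2-Ea-ps and H2-Eb2, the coding genes of the class II interval and the 5 nearest genes; a few of them are given only in counts. Genes outside the rule (Ifngr1, Zbtb46, Fcer2a, March1, March8, Ppt1, Fn1) were named after their values were seen. Some genes of the lists are not reported here. Figures used Python 3.11.15 and matplotlib 3.10.9.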

Additional observations from a re-analysis of the deposited data

How the results depend on the processing

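Over the 16 alternative fits 8 of the 10 genes kept their call and direction, H2-Oa lost its call in 8 and H2-Ob was never called. All genes tested gave 2245 higher and 2492 lower calls; these were 1280 and 3460 with library totals alone, which moved the median of all genes by −0.18, 1358 and 1451 with the replicate block, 969 and 1250 with the identifier letter as a covariate, 1012 and 1298 among libraries with the letter M, and 1050 to 1955 and 1153 to 2048 with 1 library left out; the cause was not tested. Omitting the filter moved the median of all genes by −0.40 and gave a median of 2.35 for the 10 genes. That fit takes in rarely counted genes, and the cause of the shift was not tested. The median of the 10 genes was 2.09 with library totals, 2.11 with the letter and 2.19 to 2.36 with 1 library left out. With the replicate block 8 of the 10 genes were called and H2-Oa had 0.93 (adjusted p = 0.0812). Deviations of libraries with the same replicate number had correlations of −0.199, 0.045 and −0.143, and pairs with different numbers had −0.096 to 0.229. With 3 libraries per group these values cannot show whether the numbers pair samples. Changes of sign, none of them called: H2-Ob was 0.04 with limma-voom and with the block, 0.02 without a filter, and −0.26 to 0.44 with 1 library left out. Rfx5 was 0.05 without a filter and −0.08 to 0.06 with 1 library left out; Brd2 was −0.10 and Nfyc −0.04 with library totals. H2-Aa over H2-Ab1 lay between −0.11 and 0.17 and H2-Eb1 over H2-Ab1 between −0.10 and 0.11. At 0 to 31 counts per library, Ifng, H2-Ea-ps and Gm20513 did not pass the filter on low counts and were not tested in the main fit.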

Other observations

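Gm20513, an antisense locus on chromosome 17 from 34293073 to 34308070, on the minus strand, lies across the start of H2-Eb1. It had 11, 31 and 15 counts in JMML libraries and 0, 0 and 2 counts in WT libraries, and was named after its values were seen. The highest of the 6 libraries, JMML replicate 2, was also the highest for H2-Eb1. Gm20513 did not pass the filter on low counts and was not tested.

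Mir5107, a microRNA locus that overlaps 12 exon bases of Cd74 on the same strand, had 22, 53 and 20 counts in JMML libraries and 7, 5 and 3 counts in WT libraries, chosen after its values were seen. Reads of Cd74 that reach into the locus and reads of the microRNA cannot be told apart in these counts.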
